A study of Mus musculus with 76 samples.

Results

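The genes described here are 10 genes of adipocytes and of lipid uptake, out of 55536 genes in the table, of which 34366 had a count in any tumor. They were taken as a list by name, not by a threshold on the data: *Angptl4*, *Lpl*, *Fabp4*, *Cd36*, *Adipoq*, *Plin1*, *Cidec*, *Cfd*, *Pparg* and *Car4*. The list was chosen with earlier results of these data known, so it is not independent of them, and counts of its genes describe these tumors only. They were followed over 38 whole tumors in 7 groups, first by group and then tumor by tumor, where the question was whether *Angptl4* moved with the fat genes or with genes of hypoxia.

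All tumors grew from cells placed under the skin of the flank of female Balb/c mice, whose ages the methods give only as a range. CT26, a colorectal carcinoma line, was inoculated at 1000000 cells, and 4T1, a mammary carcinoma line, and its engineered derivatives at 500000 cells. Extracellular catalase (EC CAT) was given as 20 µg CAT-ABP, human catalase joined to a peptide that binds alum, together with 100 µg alum, in 1 injection into the tumor. Every control tumor was injected with the same 100 µg alum, so no group was without alum. The injection was on day 6 and the harvest on day 8, per the labels, and the methods of the study give other days for these steps and for the start of DOX. CAT-ABP + alum went into 6 CT26 tumors, 6 4T1 tumors and 5 4T1-CAT tumors. Alum alone went into 5 CT26, 5 4T1, 5 4T1-CAT and 6 4T1-control tumors. Intracellular catalase (IC CAT) came from 4T1-CAT, which carries human catalase without its peroxisomal motif and GFP under doxycycline (DOX) control, and 4T1-control carries GFP alone. Both lines were made by lentiviral transduction, their bearers were on a DOX diet from day 4, and mice with CT26 or unmodified 4T1 tumors had no DOX. The human transgene was not analysed here, so the labels of the engineered lines were not checked against it.

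Each tumor was read as 2 technical libraries by a 3′ counting method, and the counts of both were summed. Tumor totals lay between 493044 and 9077549 counts (median 4827388), and 7 of the 76 libraries fell under 0.25 of the median library total. The shallowest tumors were 4T1-control replicate 2, with 493044 counts, and 4T1 CAT-ABP + alum replicate 4, with 837403. Sequencing pools were inferred from index tags, which placed the libraries in 2 pairs of pools. A pair of 4T1-CAT alum libraries, of replicates 2 and 3, carried the same full tag, so the assignment is not certain. All CT26 and 4T1 CAT-ABP + alum tumors were in the second pair, all tumors of the engineered lines in the first, and the 4T1 alum tumors were split 3 and 2. Levels are counts per 1000000 of the scaled tumor total (CPM). Where single libraries are used, CPM are counts per 1000000 of the library total, without further scaling. Over the 21 4T1-line tumors with 2 libraries of full depth, log2 CPM of one library tracked the other at r = 0.82 for *Fabp4*, 0.81 for *Cfd*, 0.76 for *Angptl4*, 0.72 for *Car4* and 0.6 for *Lpl*. The same value was 0.49 for *Cd36*, 0.29 for *Adipoq*, 0.15 for *Pparg*, 0.11 for *Plin1* and 0.07 for *Cidec*, so tumor-to-tumor values of the last 4 were poorly repeated.

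Lipoprotein lipase, made by *Lpl*, is held on the capillary wall and splits the triglyceride of circulating lipoproteins into fatty acids. CD36 takes these up at the cell surface, FABP4 carries them in the cytoplasm of adipocytes and capillary endothelium, and perilipin 1 (*Plin1*) and CIDEC coat the lipid droplet in which fat cells store them. ANGPTL4 is secreted and inactivates lipoprotein lipase, and its gene is known to be switched on both by fatty acids through the PPAR receptors and by low oxygen through HIF. PPARγ (*Pparg*) is the nuclear receptor that drives adipocyte differentiation, adiponectin (*Adipoq*) and adipsin (*Cfd*) are secreted fat cell proteins, and *Car4* encodes a membrane-anchored carbonic anhydrase of capillaries and other tissues. Fat lies under the skin where such tumors grow, beside the thin muscle of the body wall. In bulk tumor RNA, fewer cells of a type and less RNA per cell cannot be told apart.

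The fat cell label was checked first. Of 25 further adipocyte genes, 6 passed the filter on low counts over the 7 groups (*Retn*, *Scd1*, *Fasn*, *Acaca*, *Sncg* and *Dgat2*), and most of these are also made by other cells. Leptin (*Lep*) was counted in 19 of 38 tumors and reached at most 2.18 CPM, and *Cidea* was at 0 in every tumor. Among the 10 genes themselves, *Adipoq* was counted in 31 tumors with at most 6.29 CPM, *Plin1* in 37 with at most 2.91, *Cidec* in 33 with at most 3.26 and *Pparg* in 34 with at most 5.73. These transcripts of mature fat cells were thus few. The adipsin gene *Cfd*, also a fat cell gene, was counted in all 38 tumors with up to 51.3 CPM, as were *Angptl4*, *Lpl*, *Fabp4* and *Car4* in all 38 and *Cd36* in 37. *Plin1*, *Cidec* and *Pparg* passed the filter in no comparison, and *Adipoq* passed in those within the 4T1 lines and in the test of the difference between models.

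RefSeq promoter sequence (GRCm38.p6) was at hand for 7 of the 10 genes, at 10 start sites, and 3 of these are shown because *Cfd* and *Cd36* were among the genes that tracked *Adipoq* from tumor to tumor in both models. The 250 bases before the start are given 5′ to 3′ on the strand of the gene, for *Adipoq* at chr16:23146286-23146535 (+), *Cfd* at chr10:79890603-79890852 (+) and *Cd36* at chr5:17835897-17836146 (-).
Adipoq: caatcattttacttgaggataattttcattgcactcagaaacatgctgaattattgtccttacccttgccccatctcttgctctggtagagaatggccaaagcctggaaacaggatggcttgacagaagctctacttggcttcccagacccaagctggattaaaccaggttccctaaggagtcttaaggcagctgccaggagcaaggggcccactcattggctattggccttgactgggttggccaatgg
Cfd: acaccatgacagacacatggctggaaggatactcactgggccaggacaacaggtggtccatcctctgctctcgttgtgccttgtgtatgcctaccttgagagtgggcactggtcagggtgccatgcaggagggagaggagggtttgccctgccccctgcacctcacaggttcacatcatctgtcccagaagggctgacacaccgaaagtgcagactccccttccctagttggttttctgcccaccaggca
Cd36: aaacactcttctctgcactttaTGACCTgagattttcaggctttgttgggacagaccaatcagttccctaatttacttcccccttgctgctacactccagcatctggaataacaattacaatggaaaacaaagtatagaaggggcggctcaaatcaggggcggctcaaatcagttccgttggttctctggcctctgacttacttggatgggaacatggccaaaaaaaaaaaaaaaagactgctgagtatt
Both strands were searched for AGGTCANAGGTCA, the paired site that PPAR receptors bind with RXR, for its repeated unit AGGTCA, for ACGTG and GCGTG, the cores bound by HIF, and for TTGCNNAA, a site of the C/EBP family. The unit AGGTCA lies within the paired site. Capitals in *Cd36* mark the only match in the windows shown, AGGTCA on the opposite strand, 228 bases before the start. Of 32851 promoter windows, 0.0335% held the paired site, 14% the unit AGGTCA, 16.6% ACGTG, 28.2% GCGTG and 9.56% TTGCNNAA. Matches elsewhere among the 10 start sites were AGGTCA and GCGTG in *Pparg*, GCGTG and TTGCNNAA in *Cidec*, and TTGCNNAA in *Plin1* and in a further start of *Pparg*. These are letters in a window, and no binding was measured.

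*Angptl4* (ENSMUSG00000002289, GRCm38 chr17:33773750-33781830, - strand) was higher in CT26 than in unmodified 4T1 tumors. It lay at 40 to 59.8 CPM (median 49.3) in CT26 tumors with CAT-ABP + alum and at 42.3, 31.6, 37.6, 42.8 and 43.1 CPM with alum. In 4T1 it lay at 11.9 to 35 CPM (median 23.3) with CAT-ABP + alum and at 21.2, 17.0, 13.3, 9.32 and 14.6 CPM with alum. Every CT26 alum tumor stood above every 4T1 alum tumor. In 4T1-CAT it was 38.3, 15, 19.2, 18.3 and 40.5 CPM with CAT-ABP + alum and 27.2, 35.2, 18.7, 20.1 and 61.3 CPM with alum, and in 4T1-control it ran from 6.55 to 25.3 CPM (median 17.3). The engineered lines therefore spread widely, with 4T1-CAT alum replicate 5 above every other tumor of the study. On the log2 scale the group means fell in the order CT26 CAT-ABP + alum (5.64), CT26 alum (5.31), 4T1-CAT alum (4.9), 4T1-CAT CAT-ABP + alum (4.62), 4T1 CAT-ABP + alum (4.53), 4T1 alum (3.9) and 4T1-control (3.86). Of the 6 steps between neighbours, only the first (0.33) and that from 4T1 CAT-ABP + alum to 4T1 alum (0.62) were larger than the larger SD of the groups on either side.

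For the remaining 9 genes, steps between neighbouring groups seldom exceeded the spread. The exceptions were the step of 0.63 in *Fabp4* from CT26 alum down to 4T1-CAT CAT-ABP + alum and the step of 0.74 in *Adipoq* from 4T1-CAT alum down to 4T1-CAT CAT-ABP + alum. By mean log2 CPM, 4T1-CAT alum was highest of the 7 groups for *Adipoq*, *Cfd*, *Lpl* and *Cidec*. A CT26 group was highest for *Angptl4*, *Fabp4*, *Cd36* and *Pparg*, and for *Car4* CT26 CAT-ABP + alum and 4T1-CAT alum both had a mean of 4.33. By mean CPM the order differed for *Fabp4* and *Car4*, highest in 4T1-CAT alum at 82.5 ± 41.2 and 29.5 ± 29.1 CPM (SD, n = 5), and for *Cidec*, highest in 4T1 CAT-ABP + alum at 1.37 ± 0.987 CPM (SD, n = 6). *Plin1* differed least, with group means of log2 CPM between 0.39 and 1.

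**Figure D1:**
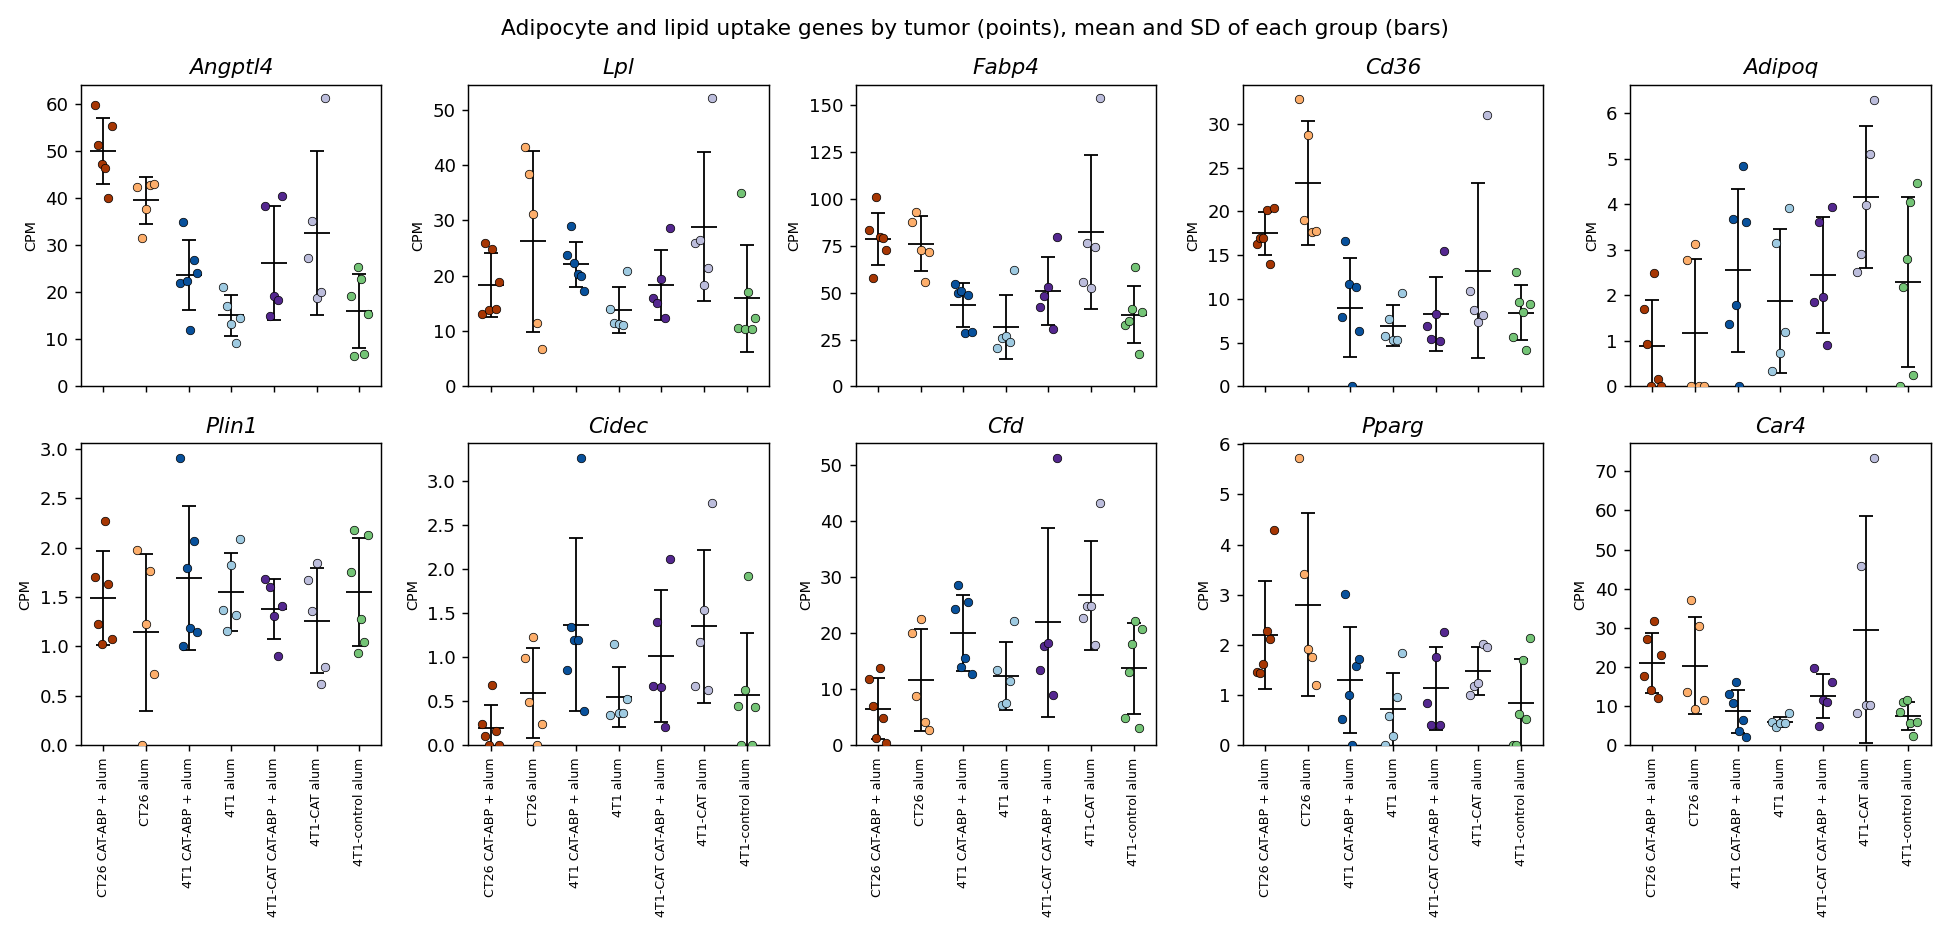
Level of each of the 10 genes in CPM (vertical axis, from 0, with its own scale for each gene) in every tumor (points) of the 7 groups (horizontal axis), with bars for the group mean and SD. *Angptl4* is highest in the CT26 groups by group mean, and replicate 5 of 4T1-CAT alum stands far above its group for *Lpl* (52.2 CPM), *Fabp4* (154) and *Cd36* (31). *Car4* is high in replicates 2 (45.7) and 5 (73.5) of that group.

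The first comparison asked what extracellular catalase did in CT26. No gene among 12830 tested passed an adjusted p of 0.05 by edgeR's quasi-likelihood test, while 311 (2.42%) had an unadjusted p under 0.05 and DESeq2 called 1. Of the 10 genes 6 were tested and none was called, with 3 above 0 and 3 below 0 and a median log2 fold change of -0.2 beside 0 for all genes. At an unadjusted p under 0.05, 1 was higher and 1 lower, where 0.896% and 1.53% of all genes were. *Angptl4* leaned upward by 0.33 ± 0.13 (SE; edgeR p = 0.0258, adjusted p = 0.9997), with 5 of the 6 treated tumors above all 5 controls and an overlap through 1 tumor. *Cd36*, the fatty acid receptor, was 14 to 20.4 CPM (median 16.9) with catalase and 32.8, 19.0, 28.7, 17.6 and 17.8 CPM without. Its groups overlapped, with 4 of 6 treated tumors below all controls, and its log2 fold change was -0.44 ± 0.19 (edgeR p = 0.0394, adjusted p = 0.9997). By a two-sided exact permutation test of log2 CPM, p was 0.0996 for *Cd36* and 0.0216 for *Angptl4*, not adjusted. The adipsin gene *Cfd* was 0.269 to 13.8 CPM (median 5.88) with catalase and 20.0, 8.76, 22.5, 4.1 and 2.65 CPM without, a log2 fold change of -0.91 ± 0.64 with overlapping groups. *Lpl* was at -0.51 ± 0.38, *Car4* at 0.11 ± 0.36 and *Fabp4* at 0.05 ± 0.16, none of them at an unadjusted p under 0.05.

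The genes of hypoxia leaned the opposite way from *Angptl4* in these CT26 tumors. Of 20 glycolytic hypoxia genes 20 lay below 0, 3 of them at an unadjusted p under 0.05, and of 22 tested non-glycolytic ones 19 lay below 0, 7 at an unadjusted p under 0.05. Their medians were -0.24 and -0.3, and over all genes 50.7% lay below 0 and 1.53% had such a p in that direction. None was called after adjustment. *Car9*, the hypoxia-induced carbonic anhydrase, was at -0.82 ± 0.28, and the glycolytic enzymes *Aldoa* and *Pgk1* at -0.43 ± 0.16 and -0.4 ± 0.16, each with edgeR adjusted p = 0.9997. *Hilpda*, which like *Angptl4* answers to both hypoxia and fatty acids and which slows fat breakdown, was at 0.02 ± 0.19.

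The same injection was then compared with alum in 4T1. Of 13092 genes none was called by edgeR or by DESeq2, and 377 (2.88%) had an unadjusted p under 0.05, of which 200 (1.53%) were higher. All 7 of the 10 genes that were tested lay above 0, where 49.5% of all genes did, 3 of them at an unadjusted p under 0.05, and their median was 0.69 beside 0 for all genes. None passed adjustment (adjusted p = 0.9993 for each by edgeR).

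*Lpl* was 17.2 to 29 CPM (median 21.4) with CAT-ABP + alum and 14, 11.5, 11.3, 11.1 and 20.9 CPM with alum. The groups overlapped only through the last control tumor, with 3 of 6 treated tumors above all controls, and the log2 fold change was 0.69 ± 0.2 (edgeR p = 0.00248). *Angptl4*, whose product blocks that enzyme, leaned the same way by 0.74 ± 0.22 (edgeR p = 0.00352), with 5 of 6 treated tumors above all controls. *Cfd* was 12.6 to 28.5 CPM (median 19.8) with catalase and 13.3, 7.18, 7.46, 11.4 and 22.2 CPM without, at 0.74 ± 0.29 (edgeR p = 0.0185), with overlapping groups. The exact permutation p of log2 CPM was 0.0152 for *Lpl*, 0.0584 for *Angptl4* and 0.0519 for *Cfd*. *Adipoq* (0.69 ± 0.53), *Car4* (0.6 ± 0.37), *Cd36* (0.53 ± 0.35) and *Fabp4* (0.47 ± 0.25) had unadjusted p between 0.0785 and 0.207. In *Fabp4* 1 control tumor, replicate 5 at 62.2 CPM, stood above every treated tumor, and without it the value was 0.86 with adjusted p = 0.456 by edgeR. *Cd36* had 0 counts in 4T1 CAT-ABP + alum replicate 4, which at its depth allows a level of up to 3.58 CPM. By mean log2 CPM, which includes that tumor at its floor, *Cd36* was lower with catalase, by -0.21 (exact permutation p = 0.978). Its direction thus depended on the measure.

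Sequencing pool was tied to part of this contrast, since 3 of the 5 alum tumors were read in the other pair of pools. That pair held no treated tumor, so a difference with the pool as a block rests on 6 treated and 2 alum tumors. With the pool as a block *Angptl4* was at 0.38 ± 0.28 (edgeR p = 0.2), while *Lpl* was at 0.8 ± 0.29 (p = 0.0138), *Cfd* at 1.01 ± 0.43 (p = 0.0302) and *Fabp4* at 0.93 ± 0.35 (p = 0.0161). Among further lipid genes *Apoc2*, the cofactor that lipoprotein lipase needs, was lower at -0.79 ± 0.2 (edgeR p = 0.000812, adjusted p = 0.9993), and the triglyceride-forming enzyme *Dgat1* was at 0.69 ± 0.28 (p = 0.0253). *Gpihbp1*, which anchors lipoprotein lipase to the capillary, was at 0 ± 0.27, and *Lmf1*, which folds the enzyme, at 0.12 ± 0.3. Hypoxia genes were evenly spread, with 13 of 20 glycolytic and 13 of 24 non-glycolytic genes above 0 and medians of 0.01 and 0.02. Among cell type markers 11 of 12 fibroblast genes lay above 0, 1 at an unadjusted p under 0.05, with summed levels of 2370 to 3990 CPM with catalase and 2450 to 3100 CPM without. Of 14 macrophage genes 12 lay below 0, 3 at an unadjusted p under 0.05, with sums of 1570 to 2360 CPM and 1810 to 3720 CPM. Their part in the lipid gene values was not tested.

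The difference of the EC CAT effects between the models was tested as an interaction, CT26 minus 4T1. Of 14160 genes none was called by edgeR or DESeq2, and 509 (3.59%) had an unadjusted p under 0.05, of which 335 (2.37%) were below 0. Of the 10 genes 7 were tested and 7 lay below 0, where 53.2% of all genes did, with a median of -0.98 beside -0.02. *Lpl* (-1.21 ± 0.46, p = 0.0142), *Cd36* (-0.98 ± 0.41, p = 0.0255) and *Cfd* (-1.67 ± 0.73, p = 0.0308) had an unadjusted p under 0.05 by edgeR, each with adjusted p = 1. *Angptl4*, which leaned upward in both models, was at -0.42 ± 0.26 (p = 0.118). The models were therefore not shown to differ for any of these genes after adjustment.

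Intracellular catalase was read by comparing 4T1-CAT with 4T1-control tumors, both with alum and DOX. Of 12534 genes none was called by edgeR, 637 (5.08%) had an unadjusted p under 0.05 and 447 (3.57%) were higher with such a p, and DESeq2 called 6. All 7 tested lipid genes lay above 0, where 48.9% of all genes did, 5 of them at an unadjusted p under 0.05, and their median was 0.91 beside -0.01. Without the filter on low counts, a fit that calls 131 genes, *Car4*, *Fabp4*, *Lpl*, *Angptl4* and *Cfd* were called, with edgeR adjusted p between 0.0000000823 and 0.047.

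*Car4* was 8.19, 45.7, 10.1, 10.2 and 73.5 CPM in 4T1-CAT and 2.33 to 11.5 CPM (median 7.15) in 4T1-control. A pair of 4T1-CAT tumors, replicates 2 and 5, carried the difference of 2.1 ± 0.57 (edgeR p = 0.0017, adjusted p = 0.611), and the other 3 lay within the control range. *Fabp4* was 55.8, 76.5, 52.4, 74.4 and 154 CPM in 4T1-CAT and 17.3 to 63.7 CPM (median 37.3) in 4T1-control. Of the 5 4T1-CAT tumors 3 were above all controls, and the log2 fold change was 1.08 ± 0.3 (edgeR p = 0.00194, adjusted p = 0.611).

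*Lpl* was 25.9, 26.5, 18.4, 21.4 and 52.2 CPM in 4T1-CAT and 10.3 to 34.9 CPM (median 11.4) in 4T1-control, at 1.07 ± 0.31 (edgeR p = 0.00268, adjusted p = 0.622). Its groups overlapped through control replicate 2, the shallowest tumor. *Angptl4* was at 0.91 ± 0.33 (edgeR p = 0.0141, adjusted p = 0.754), with 3 of 5 tumors above all controls. *Cfd* was 22.7, 24.9, 24.8, 17.8 and 43.2 CPM against 3.11 to 22.2 CPM (median 15.6), at 0.9 ± 0.38 (edgeR p = 0.0287, adjusted p = 0.877), with 4 of 5 tumors above all controls. *Adipoq* (0.71 ± 0.54) and *Cd36* (0.7 ± 0.38) had a larger error beside their size. The exact permutation p of log2 CPM was 0.00866 for *Fabp4*, 0.0455 for *Lpl* and 0.0476 for *Cfd*. It was 0.0519 for *Car4* and 0.0606 for *Angptl4*.

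Much of the size in this comparison came from 4T1-CAT alum replicate 5. Without it the log2 fold changes were 1.46 for *Car4*, 0.76 for *Lpl*, 0.74 for *Fabp4*, 0.67 for *Cfd*, 0.57 for *Angptl4* and 0.17 for *Cd36*, each with adjusted p = 0.9999 by edgeR. Markers of other tissue moved with the lipid genes. Of 12 skeletal muscle genes, none at 0 in all tumors, 10 were tested, 10 lay above 0 and 7 had an unadjusted p under 0.05, with a median of 1.13, *Myh4*, the fast myosin, at 2.05 ± 0.41 and *Tnnc2*, fast troponin C, at 1.28 ± 0.31. Their summed level ran from 372 to 1020 CPM in 4T1-CAT and from 207 to 568 in 4T1-control, with replicate 5 of 4T1-CAT at 1020. Fibroblast markers were above 0 in 11 of 12, 6 at an unadjusted p under 0.05, with summed levels of 2970 to 6100 CPM against 2260 to 3180 CPM. Of 14 tested endothelial genes 13 lay above 0, 1 at an unadjusted p under 0.05, with a median of 0.31. Their summed levels were 195 to 384 CPM against 164 to 279 CPM. The part of muscle, connective tissue and endothelium in the lipid gene values was not tested.

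Of the further adipocyte genes 5 were tested and 5 lay above 0, with *Sncg* at 0.95 ± 0.39 (edgeR p = 0.0256) and *Retn*, resistin, at 0.79 ± 0.36 (p = 0.0412). Hypoxia genes did not lean with them: 9 of 19 glycolytic and 15 of 24 non-glycolytic genes were above 0, and *Car9* was at -0.47 ± 0.16 (edgeR p = 0.009, adjusted p = 0.71).

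EC CAT in 4T1-CAT tumors was compared with alum in the same line, so these control tumors are the ones just described as the IC CAT group. Of 13093 genes none was called by edgeR, but 2000 (15.3%) had an unadjusted p under 0.05, of which 1116 (8.52%) were lower, and DESeq2 called 266. All 7 tested lipid genes lay below 0, where 50.1% of all genes did, 2 of them at an unadjusted p under 0.05, with a median of -0.64 beside 0. *Fabp4* was 42.5, 48.1, 53.1, 30.8 and 79.6 CPM with CAT-ABP + alum, at -0.7 ± 0.29 (edgeR p = 0.0315, adjusted p = 0.284). *Lpl* was 16, 15, 19.5, 12.3 and 28.6 CPM, at -0.64 ± 0.28 (edgeR p = 0.0381, adjusted p = 0.302). For both, 3 of 5 treated tumors were below all controls, and the exact permutation p of log2 CPM was 0.0952.

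*Car4* (-1.18 ± 0.56), *Adipoq* (-0.75 ± 0.4), *Cd36* (-0.62 ± 0.41), *Angptl4* (-0.28 ± 0.34) and *Cfd* (-0.26 ± 0.39) had unadjusted p of at least 0.0541 by edgeR. Without control replicate 5, which also entered the IC CAT comparison, *Fabp4* was at -0.35, *Lpl* at -0.34, *Cd36* at -0.09, *Cfd* at -0.03 and *Angptl4* at 0.06. Muscle markers were lower in 11 of 11 tested, 7 at an unadjusted p under 0.05 and 4 without overlap, where 0.787% of all genes were lower without overlap. Their summed level was 270 to 387 CPM with CAT-ABP + alum against 372 to 1020 CPM. Fibroblast markers lay below 0 in 11 of 12, 4 at an unadjusted p under 0.05 and 1 without overlap, with a median of -0.42 and summed levels of 2660 to 3340 CPM against 2970 to 6100 CPM. The part of both in the lipid gene values was not tested. *Car9* leaned upward at 0.38 ± 0.12 (edgeR p = 0.00856, adjusted p = 0.208), and 16 of 20 glycolytic and 16 of 24 non-glycolytic hypoxia genes lay above 0.

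Between the tumor models some of the lipid genes differed beyond the spread and others did not. With alum alone 5434 of 12817 genes (42.4%) were called by edgeR, 21.3% of all being higher in CT26, and of the 6 lipid genes tested 4 were higher and none lower. With CAT-ABP + alum 5928 of 13016 genes (45.5%) were called, 21.8% higher and 23.7% lower, and of 6 lipid genes 4 were higher in CT26 and 1 lower. *Angptl4* rose by 1.43 ± 0.19 with alum (edgeR adjusted p = 0.0000277) and by 0.99 ± 0.16 with CAT-ABP + alum (adjusted p = 0.0000809), in both cases without overlap, where 14.2% and 11.5% of all genes were higher without overlap. The CT26 tumors shared pools with 2 of the 5 4T1 alum tumors, and within these pools *Angptl4* was higher by 1.05 ± 0.22 (adjusted p = 0.00424), *Cd36* by 1.77 ± 0.35, *Fabp4* by 1.7 ± 0.25 and *Car4* by 1.9 ± 0.6, all 4 still called.

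*Cd36* rose in CT26 by 1.78 ± 0.26 with alum (edgeR adjusted p = 0.0000457), from 5.8, 7.76, 5.28, 5.26 and 10.7 CPM in 4T1, without overlap. With CAT-ABP + alum it rose by 0.78 ± 0.28 (adjusted p = 0.0292), a call lost when any of 4 tumors was left out. *Car4* rose by 1.72 ± 0.37 (adjusted p = 0.00149) from 5.8, 4.6, 5.64, 5.5 and 8.1 CPM in 4T1 to 13.6, 37.0, 9.12, 30.5 and 11.6 CPM in CT26, and by 1.17 ± 0.35 with CAT-ABP + alum (adjusted p = 0.0118). *Fabp4* rose by 1.26 ± 0.26 (adjusted p = 0.00115) from 20.5, 25.9, 27.1, 23.8 and 62.2 CPM to 87.7, 92.9, 72.6, 55.6 and 72.0 CPM, and by 0.8 ± 0.17 with CAT-ABP + alum (adjusted p = 0.000888).

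*Cfd* behaved otherwise. With CAT-ABP + alum it fell by 1.68 ± 0.45 on the log2 scale in CT26 (edgeR adjusted p = 0.00549), with 5 of 6 CT26 tumors below all 4T1 tumors, while with alum its value was 0 ± 0.5. *Lpl* was at 0.94 ± 0.4 with alum (adjusted p = 0.0706) and at -0.29 ± 0.2 with CAT-ABP + alum (adjusted p = 0.246). In CT26 alum tumors *Lpl* itself ranged widely, at 43.3, 38.4, 31.2, 11.4 and 6.75 CPM. The exact permutation test of log2 CPM (two-sided) was run for each of the 10 genes in each of the 7 comparisons and not adjusted. For genes too low for the fit it is the only test. *Pparg* was higher in CT26 than in 4T1 with alum by 1.61 (p = 0.0238), at 5.73, 3.41, 1.91, 1.76 and 1.2 CPM against 0, 0.575, 0.182, 0.956 and 1.83 CPM. *Cidec* was lower in CT26 with CAT-ABP + alum by a log2 difference of -1.49 (exact permutation p = 0.00433, where the smallest possible is 0.00216), at 0 to 0.68 CPM (median 0.133) against 0.382 to 3.26 CPM (median 1.19). *Adipoq* and *Plin1* had permutation p of at least 0.115 in both.

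The rest of the lipid supply genes did not share 1 direction between the models. Of 11 tested partners of lipoprotein lipase 3 were higher and 4 lower in CT26 with alum, and 1 and 5 with CAT-ABP + alum. *Vldlr*, a receptor for triglyceride-rich lipoproteins, rose by 4.7 ± 0.26 and 4.44 ± 0.2 in the alum and CAT-ABP + alum comparisons, while the lipase cofactor *Apoc2* fell by 1.89 ± 0.2 and 1.25 ± 0.28 and the endothelial lipase *Lipg* fell by 2.72 ± 0.42 and 2.46 ± 0.38. *Gpihbp1* (0.22 ± 0.3 and 0.26 ± 0.24) and *Lmf1* (-0.05 ± 0.27 and -0.15 ± 0.29) were not called. Of 17 and 16 tested genes of fatty acid uptake and storage 8 and 5 were higher and 4 and 4 lower. *Cav1*, the coat protein of caveolae, rose by 3.35 ± 0.15 and 3.26 ± 0.16, and the fatty acid binding protein *Fabp5* fell by 1.1 ± 0.29 and 1.4 ± 0.19.

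Hypoxia genes were split as well. *Hilpda* rose by 1.19 ± 0.23 and 1.16 ± 0.21 and *Pgk1* by 1.08 ± 0.17 and 0.75 ± 0.15, while *Car9* fell by 1.41 ± 0.26 and 2.11 ± 0.22. Of 24 tested non-glycolytic hypoxia genes 9 were higher and 7 lower with alum, and 3 higher and 10 lower with CAT-ABP + alum. Of 20 glycolytic ones 10 were higher and 1 lower with alum, and 9 higher and 3 lower with CAT-ABP + alum. Of the genes of fatty acid oxidation under PPAR control 1 was higher and 4 lower of 16 with alum, and 2 higher and 7 lower of 17 with CAT-ABP + alum. All 8 tested epithelial genes were lower in CT26 in both comparisons. Of 14 macrophage genes 5 were higher with alum and 9 with CAT-ABP + alum, and none lower. Of all genes 21.3% and 21.8% were higher and 21.1% and 23.7% lower. The median summed macrophage level was 3660 and 3540 CPM in CT26 and 2340 and 2090 CPM in 4T1, with overlap in alum alone. Of 15 and 14 endothelial genes 4 and 3 were lower, and of 12 fibroblast genes 5 and 7, with 1 higher in each. The part of these cell types in the lipid gene values was not tested.

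4T1-control tumors were set beside unmodified 4T1 tumors, both with alum, as the background for the engineered line, the vector and DOX together. Of 12431 genes none was called by edgeR, 1307 (10.5%) had an unadjusted p under 0.05 and DESeq2 called 16. Of the 7 lipid genes tested none had an unadjusted p under 0.05, and their log2 fold changes lay between -0.01 for *Lpl* and 0.44 for *Adipoq* with SE of 0.27 to 0.64. This comparison shares its 4T1 alum tumors with EC CAT in 4T1 and with CT26 against 4T1.

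**Figure D2:**
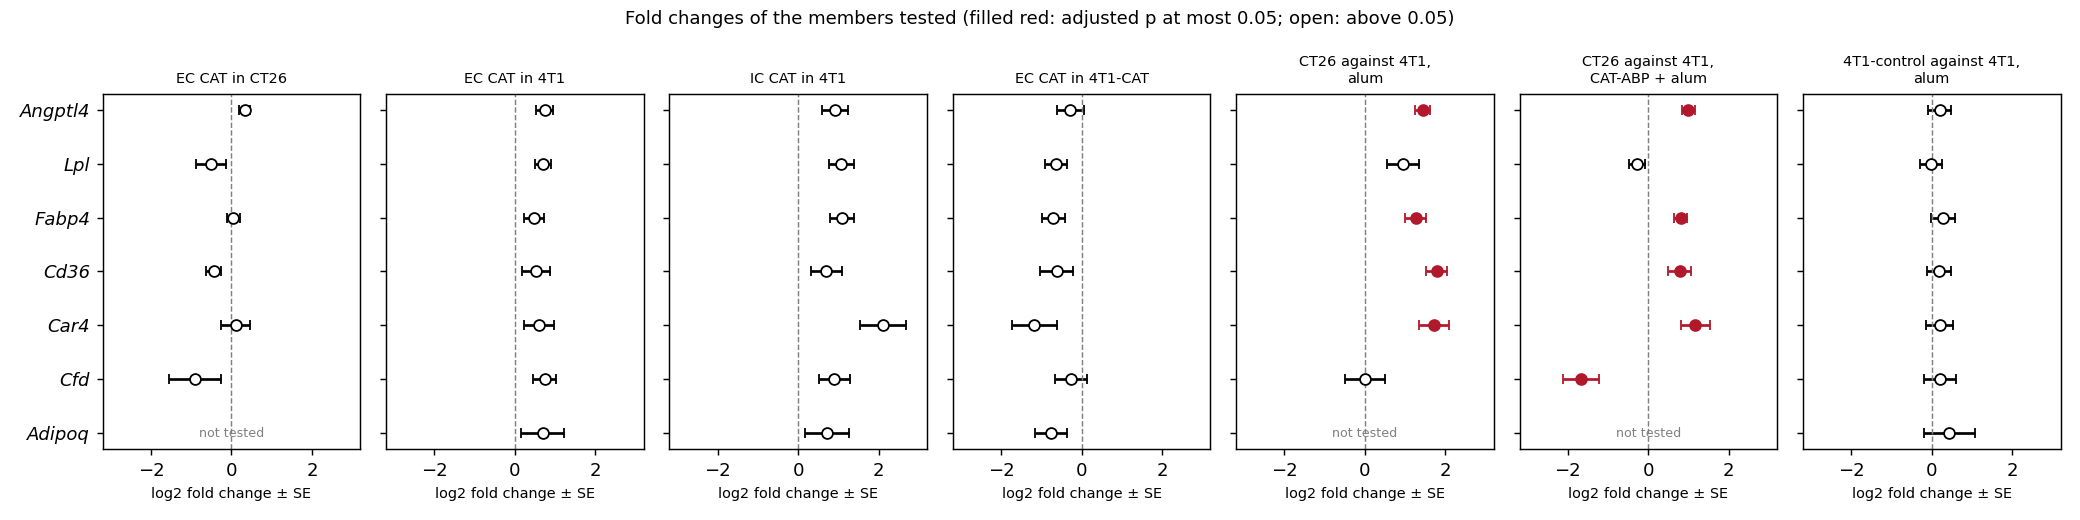
Log2 fold change (horizontal axis, same scale throughout) with its SE for each of the 10 genes that was tested (vertical axis) in each comparison (panels); filled red points have an edgeR adjusted p of at most 0.05 and open points do not. Filled points occur only in the panels of CT26 against 4T1, 4 with alum and 5 with CAT-ABP + alum, while in 4T1 the 7 EC CAT values and the 7 IC CAT values all lie to the right of 0.

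Tumors of 1 group differed among themselves, and these differences were used to see which genes moved together. The log2 CPM of each tumor was taken minus the mean of its group, separately for the 27 tumors of the 4T1 lines and the 11 CT26 tumors, since the models form separate clusters. In the 4T1 lines the closest pairs were *Fabp4* with *Cfd* (Pearson r = 0.77, Spearman rho = 0.75), *Adipoq* with *Pparg* (0.76 and 0.76), *Adipoq* with *Cd36* (0.69 and 0.63), *Adipoq* with *Cfd* (0.64 and 0.6), *Lpl* with *Fabp4* (0.64 and 0.66) and *Fabp4* with *Cidec* (0.64 and 0.57). Without the 2 tumors farthest from the median these r were 0.69, 0.68, 0.57, 0.6, 0.5 and 0.59. These pairs were the closest by Pearson r alone. By rho the closest was *Fabp4* with *Cd36*, at rho = 0.77 and r = 0.6, or 0.74 without the 2 farthest tumors. For *Lpl* with *Cd36* rho was 0.67 and r 0.48, or 0.72 without the 2 farthest tumors. *Plin1* followed none of them, with r between -0.14 and 0.21. In CT26 *Adipoq*, *Cfd* and *Cidec* formed the tightest set, at r = 0.86 for *Adipoq* with either of the others and 0.8 for *Cidec* with *Cfd*. All r here are descriptions across tumors whose genes were read in the same libraries, and no p is given. *Adipoq* and *Pparg* repeated poorly between libraries of a tumor in the 4T1 lines (r = 0.29 and 0.15). Both had 0 counts in 4T1 CAT-ABP + alum replicate 4 and in 4T1-control replicate 1. With the log2 tumor total *Pparg* had r = 0.53, *Adipoq* 0.25 and *Lpl* -0.49, and the part of depth in the pairs was not tested.

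*Angptl4* was set beside the other genes in the same way. In the 4T1 lines its r was 0.56 with *Fabp4* and *Cidec*, 0.55 with *Car4*, 0.54 with *Cd36*, 0.48 with *Cfd*, 0.39 with *Pparg*, 0.34 with *Adipoq*, 0.2 with *Lpl*, the gene of the enzyme that it inhibits, and -0.13 with *Plin1*. In CT26 its r with the same genes lay between -0.35 for *Fabp4* and 0.44 for *Plin1*.

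**Figure D3:**
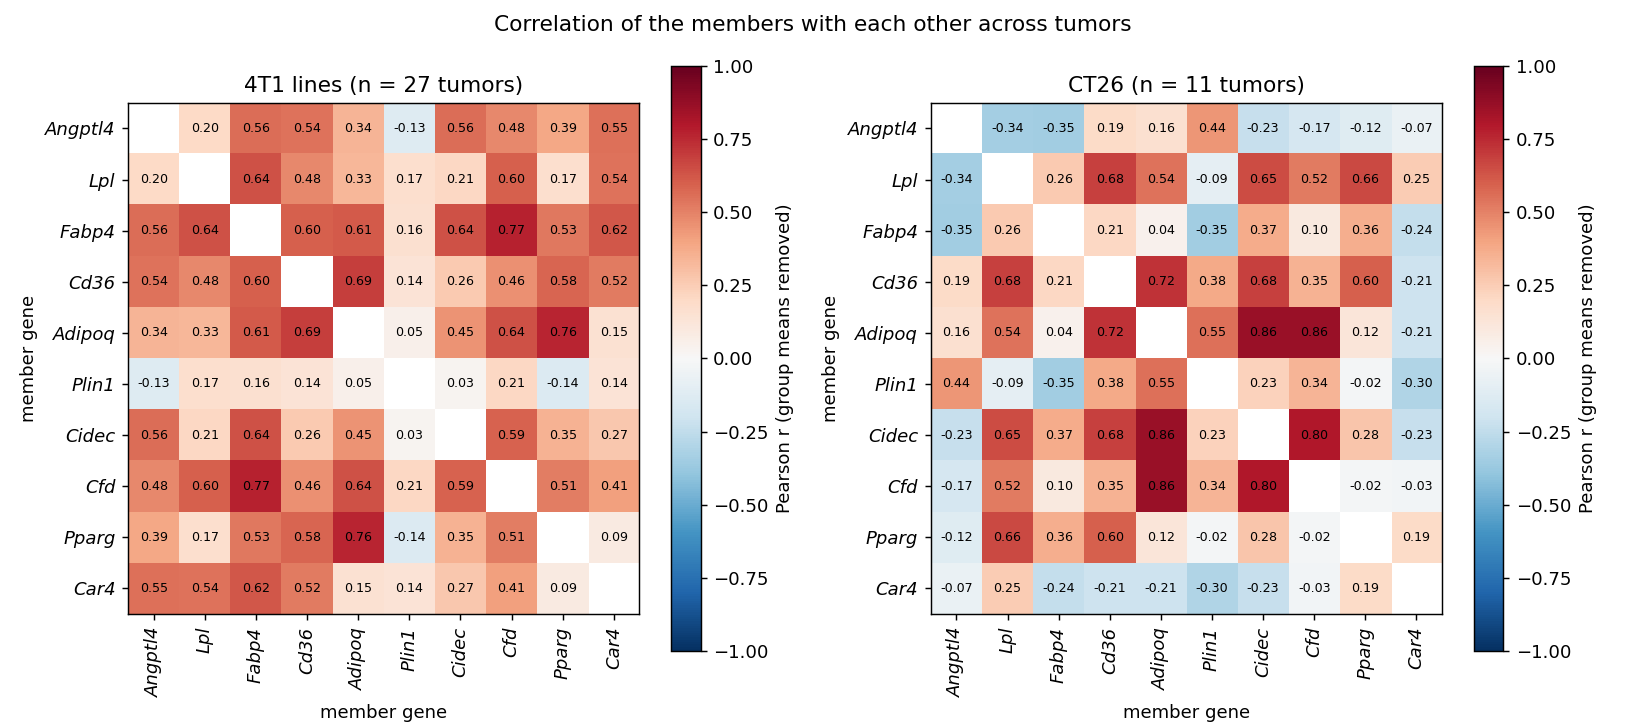
Pearson r between each pair of the 10 genes (both axes) across tumors with group means removed, for the 27 tumors of the 4T1 lines (left) and the 11 CT26 tumors (right); color runs from -1 (blue) to 1 (red). In the 4T1 lines the darkest cells are *Fabp4* with *Cfd* (0.77) and *Adipoq* with *Pparg* (0.76), the row of *Angptl4* reaches at most 0.56, and that of *Plin1* stays between -0.14 and 0.21.

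The question of fat or hypoxia was then asked with 2 scores. The adipocyte score was the mean log2 CPM of *Adipoq* and *Cfd*, the 2 of 4 chosen fat cell genes that passed the filter, and the hypoxia score the mean of 45 hypoxia genes, 20 glycolytic and 25 others, without *Angptl4*. In the 4T1 lines *Angptl4* had r = 0.43 (rho = 0.4) with the adipocyte score and r = 0.83 (rho = 0.83) with the hypoxia score. Leaving out each tumor in turn moved the first between 0.33 and 0.58 and the second between 0.81 and 0.85, and without the 2 tumors farthest from the median the values were 0.48 and 0.8. The difference of the 2 correlations was not tested, and a score of 45 genes carries less counting error than a score of 2.

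The 4 tumors in which *Angptl4* lay farthest from its group mean show what these values rest on. In 4T1-control replicate 2, the shallowest tumor, the deviations on the log2 scale were -1.065 for *Angptl4*, -0.563 for the hypoxia score and 0.343 for the adipocyte score. In 4T1-CAT alum replicate 5 they were 1.045, 0.139 and 0.684. In 4T1-control replicate 5 they were -0.977, -0.149 and -1.611, and in 4T1 CAT-ABP + alum replicate 4 they were -0.901, -0.16 and -1.387. The hypoxia score thus had the sign of *Angptl4* in all 4 and the adipocyte score in 3. The level of *Angptl4* rested on 3 counts in 4T1-control replicate 2 and on 10 in 4T1 CAT-ABP + alum replicate 4. In 4T1-control replicate 1, where the adipocyte score lay farthest from its group mean at -1.68, *Angptl4* was at 0.437 and the hypoxia score at 0.183.

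When the measures were taken from different libraries of a tumor, 1 for *Angptl4* and the other for the score, the mean r over 21 tumors of full depth was 0.55 with the adipocyte score and 0.78 with the hypoxia score. These libraries were scaled by their totals alone, so the values differ from the main r in scaling and tumors as well as in library. The part of scaling in them was not tested. With summed libraries, r within the first pair of pools (n = 19) was 0.39 and 0.85 (rho = 0.33 and 0.79). Within the second pair (n = 8) it was 0.85 and 0.74 (rho = 0.57 and 0.64). By r the order of the scores was thus not the same in the second pair, which holds the 4T1 CAT-ABP + alum tumors and 2 alum tumors. Over all 27 tumors of the 4T1 lines *Angptl4* had r = 0.23 with the log2 tumor total and the hypoxia score 0.35.

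No other of the 10 genes tracked the hypoxia score as *Angptl4* did in the 4T1 lines. Their r with it lay between -0.12 for *Plin1* and 0.42 for *Cidec*, with *Lpl* at -0.08 and *Car4* at 0.28. In CT26 the order was another one, with *Car4* at 0.8 (rho = 0.73), *Lpl* at 0.5 and *Cfd* at 0.47.

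In CT26 *Angptl4* followed neither score, at r = -0.01 (rho = -0.29) with the adipocyte score and r = -0.12 (rho = -0.05) with the hypoxia score over 11 tumors. *Angptl4* also varied less there, between 31.6 and 59.8 CPM over both groups. From different libraries, scaled by their totals alone, the values were 0.36 and 0.37. At this depth and number of tumors no order between the scores was detectable in CT26.

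**Figure D4:**
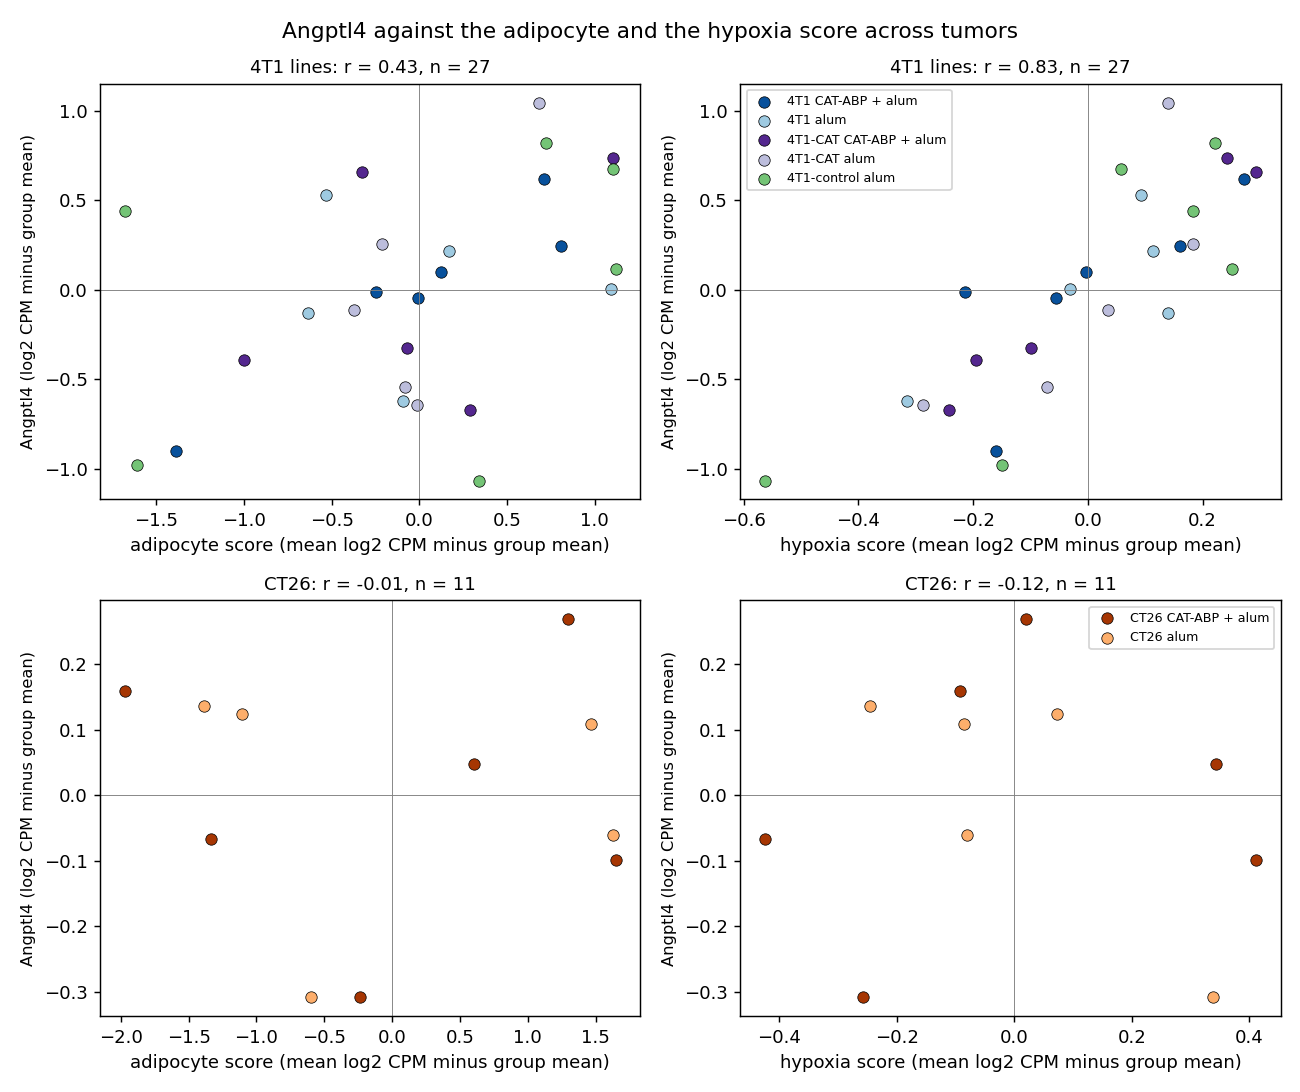
*Angptl4* (vertical axis, log2 CPM minus the group mean) against the adipocyte score (left) and the hypoxia score (right; mean log2 CPM minus the group mean) for the 27 tumors of the 4T1 lines (top) and the 11 CT26 tumors (bottom), colored by group. The points lie along a rising band in the hypoxia panel of the 4T1 lines (r = 0.83), scatter more in its adipocyte panel (r = 0.43) and show no slope in CT26 (r = -0.01 and -0.12).

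The hypoxia lists were not alone in following *Angptl4* in the 4T1 lines. Beside r = 0.86 for the mean of the non-glycolytic and 0.71 for that of the glycolytic hypoxia genes, the mean of 9 glucocorticoid response genes had r = 0.84, of 19 fatty acid uptake and storage genes 0.76, of 15 endothelial genes 0.75, of 9 epithelial tumor cell genes 0.59 and of 6 further adipocyte genes 0.55. Skeletal muscle (0.45), fibroblasts (0.48), epidermis (0.47), PPAR targets in oxidation (0.38), lipoprotein lipase partners (0.14) and macrophages (-0.1) were lower. Over all 14645 other genes that passed the filter the median r with *Angptl4* was 0.12. That is a median over single genes, while the values above are for list means, which carry less counting error. The medians over single genes were 0.58 for non-glycolytic and 0.48 for glycolytic hypoxia genes. They were 0.51 for endothelial genes and 0.49 for both glucocorticoid response and fatty acid uptake and storage genes.

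Single genes were tested for 172 genes in both models, 344 relations, by 100000 permutations of tumors within groups with Benjamini-Hochberg adjustment over all of them. In the 4T1 lines 14 of 25 non-glycolytic and 6 of 20 glycolytic hypoxia genes passed an adjusted p of 0.05 with positive r. Of all 172 listed genes, hypoxia genes included, 55 (32%) did. The share among all 14645 genes that passed the filter was not computed, so the counts cannot be set against it. The count was 2 of 6 for further adipocyte genes, 6 of 15 for endothelial, 5 of 9 for epithelial, 4 of 12 for fibroblast, 3 of 11 for muscle and 2 of 9 for glucocorticoid response genes, so the glycolytic and the adipocyte list were both near the share of all listed genes. Of 19 genes of fatty acid uptake and storage 8 passed with positive and 1 with negative r. The genes named next were chosen after their values were seen. *Adm*, adrenomedullin, had r = 0.83 (rho = 0.89, adjusted permutation p = 0.000688), and *Vegfa*, the angiogenic factor, r = 0.81 (rho = 0.8, adjusted permutation p = 0.000688). Their unadjusted p of 0.00001 is the smallest that 100000 permutations can give.

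*P4ha1*, a collagen prolyl hydroxylase, had r = 0.79 (rho = 0.76) and *Fabp5* r = 0.83 (rho = 0.83), with adjusted permutation p = 0.000688 and 0.00172. Without the 2 tumors farthest from the median, r was 0.83 for *Adm*, 0.79 for *Vegfa*, 0.72 for *P4ha1* and 0.78 for *Fabp5*. *Krt8*, a keratin of the tumor cells, was at r = 0.75 (rho = 0.78, adjusted permutation p = 0.00156), and *Msr1*, a scavenger receptor of macrophages, at r = -0.73 (rho = -0.71, adjusted permutation p = 0.00497). Other hypoxia genes were not called: *Car9* had r = 0.06 (rho = 0.01, adjusted permutation p = 0.919), *Hilpda* r = 0.19 (rho = 0.18, adjusted permutation p = 0.638) and *Aldoa* r = 0.29 (rho = 0.25, adjusted permutation p = 0.369). Of all 172 genes none passed in CT26, where *Adm* had r = 0.5 (rho = 0.55, permutation p = 0.152, adjusted p = 0.437).

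**Figure D5:**
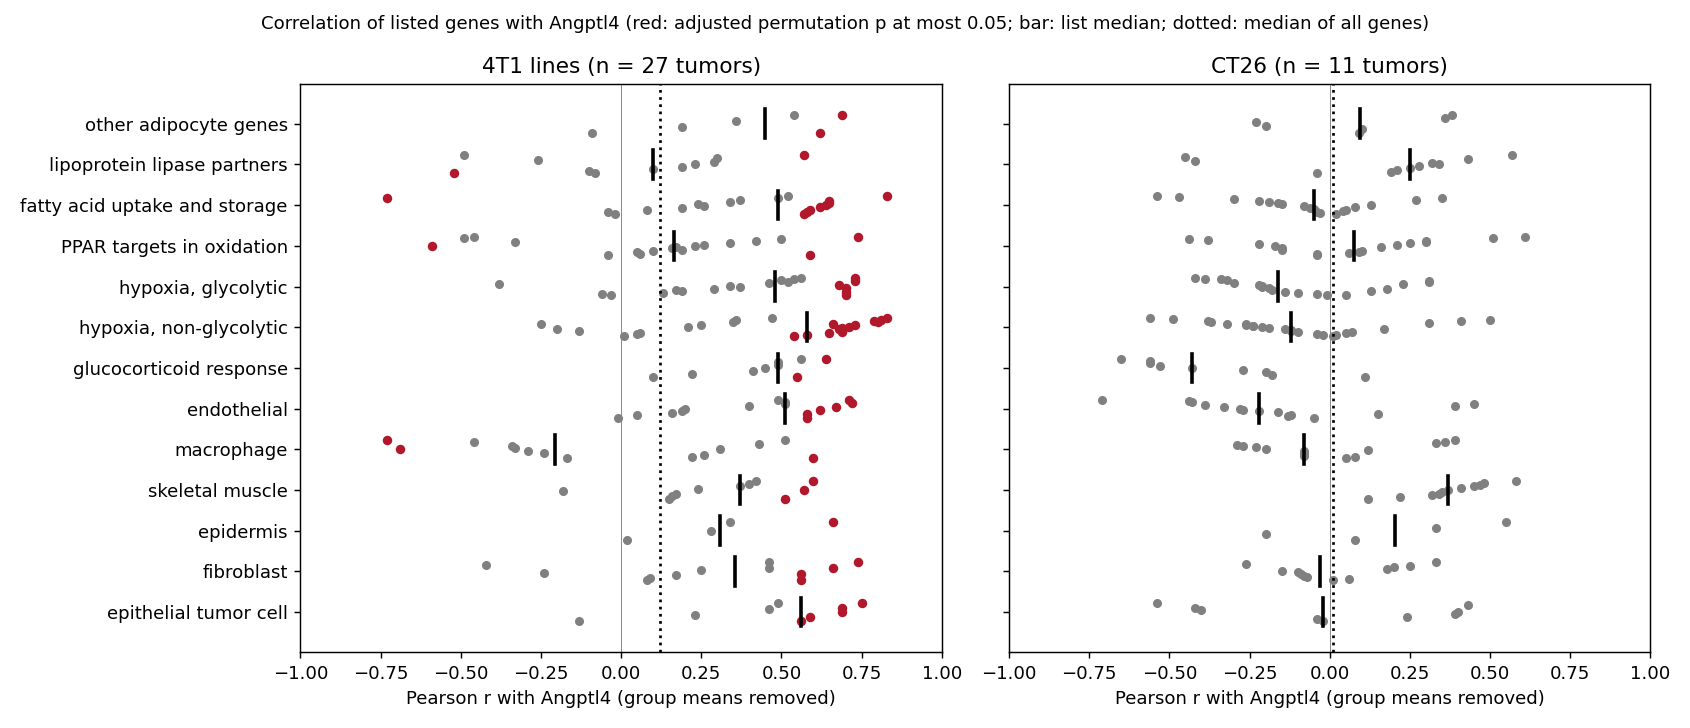
Pearson r of single listed genes (points) with *Angptl4* (horizontal axis, group means removed) by list (vertical axis) in the 4T1 lines (left) and CT26 (right); red points have an adjusted permutation p of at most 0.05, short bars are list medians and the dotted line is the median of all genes. In the 4T1 lines the non-glycolytic hypoxia genes have a median r of 0.58 with 14 of 25 in red, and in CT26 no point is red.

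The scores were also entered as covariates in the comparisons of groups. In 4T1, where the EC CAT value of *Angptl4* was 0.74 ± 0.22, the value was 0.52 ± 0.25 with the adipocyte score and 0.62 ± 0.17 with the hypoxia score. For IC CAT the value of 0.91 ± 0.33 became 0.51 ± 0.37 and 0.73 ± 0.25. For EC CAT in 4T1-CAT the value of -0.28 ± 0.34 became 0.06 ± 0.35 with the adipocyte score and -0.73 ± 0.2 with the hypoxia score (edgeR p = 0.00209, adjusted p = 0.228). For EC CAT in CT26 it was 0.34 ± 0.14 and 0.33 ± 0.15 beside 0.33 ± 0.13. Between models with alum it was 1.41 ± 0.21 and 1.41 ± 0.2 beside 1.43 ± 0.19. Fits with and without a covariate rest on the same tumors, and the differences between them were not tested.

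Among all genes that passed the filter, those most like *Angptl4* over the 27 tumors of the 4T1 lines included *Ptgis*, prostacyclin synthase (r = 0.9), *Fbn1*, fibrillin 1 (0.89), *Cd24a* (0.87) and *Fbln2*, fibulin 2 (0.85). Of the lipid genes *Fabp4* ranked 1160 in this list, *Car4* 1245, *Cd36* 1415, *Cfd* 2243, *Pparg* 3650, *Adipoq* 4416 and *Lpl* 6409 of 14645. Over the 11 CT26 tumors the most alike were *Dock6* (0.88), *Cyb5rl* (0.87), *Fech* (0.87), *Tfpi2* (0.86) and *Elf2* (0.85).

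Most like *Adipoq* in the 4T1 lines were *Tdrd3* (r = 0.79), *Ambra1* (0.78), *Pparg* (0.76), *Tmem33* (0.76) and *Mup7* (0.76), and of the lipid genes *Cd36* ranked 23, *Cfd* 72 and *Fabp4* 116, where *Angptl4* ranked 2237. In CT26 they were *Ippk* (0.97), *Eva1a* (0.92), *Zranb3* (0.92), *Sanbr* (0.91) and *Ryr1* (0.91). At 0 to 6.29 CPM the counts of *Adipoq* were few, and its r with any gene carries that counting error.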

How the data were processed

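RNA of 38 whole tumors was read as 76 libraries, 2 technical libraries for each tumor. The deposited values are estimated counts per gene that the authors made with a Smart-seq2 pipeline. The aligner and genome build are not given in the sources used here, and 39.7% of non-zero values were not whole. Both libraries of each tumor were added up, then rounded to whole numbers. Tumors were grouped by their labels, and no column lacked a sample. The methods state that some technical libraries of low depth had been left out.

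Each comparison of groups was fitted over all genes passing filterByExpr with edgeR's quasi-likelihood test (edgeR 4.0.16, limma 3.58.1, R 4.3.3, the data.table package, version 1.17.8), with TMM scaling and Benjamini-Hochberg adjustment over all genes at 0.05. The fit was first tested on simulated data. CPM are counts per 1000000 of the TMM-scaled total, and log2 CPM used a prior count of 2. Values of single libraries were scaled by the library total alone, without TMM. A count of 0 was read as allowing up to 3 counts, which covers counting error only. P-values set a difference between groups, or a correlation, against the spread between tumors. Genes too low for the fit had exact permutation tests. *Aldoa* had 2 identifiers, of which the one with most counts was used, and *Ero1l* was found under its newer symbol.

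The 10 genes and all gene lists were chosen with earlier results of these data known. Besides the 10 genes, the text names from each list the top 5 called genes in each direction or, where fewer than 3 passed, up to 3 with the smallest p, a few fixed genes of lipase handling and hypoxia, and the 5 genes most like *Angptl4* and *Adipoq*, of which 1 is not reported here. Sequencing pools were inferred from the index tags. Alternatives were DESeq2 1.42.0, RLE size factors, no filter, a single model, a replicate block, a pool block, score covariates, low-depth libraries left out and each tumor left out in turn. Tumors of shared pools alone and scores from separate libraries were added after seeing the data.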

Additional observations from a re-analysis of the deposited data

Results flagged for a closer look

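In 12 of 70 sets of tumors, each 1 of the 10 genes in 1 group, the highest tumor stood apart from the rest by Dixon's criterion at 95%. The criterion was applied to CPM, not log2 CPM, and its error rate holds for normally spread values. CPM of few counts need not be spread so, and all 12 were at the high end. The count was therefore not set against a chance rate. 4T1-CAT alum replicate 5 was the tumor concerned in 4 of them, with *Fabp4* at 154 CPM (next tumor 76.5), *Lpl* at 52.2 (26.5), *Cfd* at 43.2 (24.9) and *Cd36* at 31 (10.9). *Cfd*, the adipsin gene, also stood apart in 4T1-CAT CAT-ABP + alum replicate 5 at 51.3 CPM (18.2). *Fabp4* did so in 4T1 alum replicate 5 at 62.2 CPM (27.1), and *Lpl* in 4T1-control replicate 2, the shallowest tumor, at 34.9 CPM (17).

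The other 5 were genes of few counts. *Cidec* stood apart in 4 groups, at 3.26 CPM in 4T1 CAT-ABP + alum replicate 5 (1.34), 1.92 in 4T1-control replicate 4 (0.624), 1.15 in 4T1 alum replicate 2 (0.523) and 0.68 in CT26 CAT-ABP + alum replicate 4 (0.243). *Pparg* stood apart in CT26 CAT-ABP + alum replicate 6 at 4.3 CPM (2.27).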

How the results depend on the processing

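Depth limits *Adipoq*, *Plin1*, *Cidec* and *Pparg* most, since a count of 0 allows up to 6.55 CPM in the shallowest tumor. Under the alternatives other than leaving out a tumor, 127 summary values and 333 values of single genes kept their direction and side of the threshold, or moved little. The number of genes called moved from 0 to 1 (EC CAT in CT26), 6 (IC CAT), 266 (EC CAT in 4T1-CAT) and 16 (4T1-control against 4T1) with DESeq2. Without the filter on low counts it moved from 0 to 1, 16 (EC CAT in 4T1), 131 (IC CAT), 47 (EC CAT in 4T1-CAT), 130 (4T1-control against 4T1) and 2 (difference between models), and 5 of the 10 lipid genes were called for IC CAT. In 4T1-control against 4T1 a single model called 10 genes, leaving out low-depth libraries 14 and the shared pools 1. The cause of these differences was not tested.

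*Cfd* in CT26 against 4T1 with alum, close to 0, changed sign to 0.01 in a single model, 0.26 when pool was a block, and 0.24 in the shared pools alone. In 4T1-control against 4T1 *Lpl* was 0 with RLE size factors. *Lpl* in CT26 against 4T1 with alum was called at 0.93 without the filter and 0.94 in a single model. *Angptl4* for EC CAT in 4T1-CAT was 0.06 with the adipocyte score as a covariate. Its r with the hypoxia score in the 4T1 lines was 0.76 with group means kept. In CT26 its r was 0.36 with the adipocyte and 0.37 with the hypoxia score from separate libraries, which were scaled by their totals alone.

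Same-numbered tumors had correlations of -0.29 to 0.33, so the numbers did not pair the tumors, and in no comparison did every tumor correlate best with its own number. With the replicate block EC CAT in 4T1-CAT called 3 genes in place of 0, and in 4T1-control against 4T1 *Lpl* was 0.06 and *Cfd* -0.14.

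Leaving out each tumor gave 0 to 1 genes called for IC CAT and for EC CAT in 4T1-CAT, and 0 to 6 for 4T1-control against 4T1, the last without 4T1-control replicate 2. Signs changed for *Fabp4* (-0.05 to 0.13) and *Car4* (-0.1 to 0.41) for EC CAT in CT26, *Angptl4* (-0.49 to 0.06) for EC CAT in 4T1-CAT, *Cfd* (-0.42 to 0.3) in CT26 against 4T1 with alum, and *Lpl* (-0.17 to 0.19) and *Car4* (-0.05 to 0.42) in 4T1-control against 4T1. A pool block could not be fitted where the pools do not divide the groups.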
